A study of Drosophila melanogaster with 12 samples.

Results

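Whole larvae that lack the Drosophila estrogen-related receptor (dERR, gene symbol ERR) were compared with heterozygous controls across all genes with a measurable RNA level. The comparison used 6 of the 12 RNA-seq samples of the series, 3 of mutant and 3 of control whole larvae, and it covered the 9974 of 24134 genes whose mean level reached the log2 of 10 in at least 1 of these groups. The other 6 samples are fat bodies dissected from larvae of the same genotypes, and their values are given only beside those of whole larvae. Mutants carried the alleles ERR1 and ERR2 in trans (ERR[1/2]) and controls carried ERR1 over a wild-type chromosome (ERR[1/+]), both in a w1118 background, so that the controls also lack 1 functional copy of the gene. The methods describe crosses of the same ERR1 females to males of the ERR2 stock for mutants and to w1118 males for controls. The paternal chromosomes therefore came from different stocks, and their origin and the genotype cannot be told apart. The paper describes all larvae as in the middle of the second larval instar (L2). The sample records give 60 h on molasses agar with yeast at 25 °C, while the methods give a later age window. A check of stage by spiracle shape is described only for larvae before dissection. How far each sample had progressed within the instar is not given, so a difference in progress and the genotype cannot be told apart. Neither source says how many larvae went into a whole-animal sample, nor whether the 3 samples of a genotype came from separate crosses, so the p-values measure the spread between these samples, which may be technical.

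Estrogen-related receptors are nuclear receptors without a known natural ligand that bind DNA and regulate energy metabolism. In Drosophila larvae dERR is known for switching on the genes of glycolysis and lactate production that support rapid growth. Each larval instar ends with a molt, in which pulses of the steroid hormone ecdysone start cascades of nuclear receptors and the epidermis lays down a new cuticle of chitin and structural proteins beneath the old one. Many cuticle genes are transcribed for only part of each instar.

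The deposited values are regularized log2 (rlog) levels, in which a difference of 1 is a 2-fold change, and low values are pulled toward the mean of the gene over the 12 samples. They do not give the depth of each library. ERR itself (FBgn0035849, 3L:8183361-8186671, coordinates from the Ensembl annotation of BDGP6.54) was listed at 8.16, 8.39 and 8.37 in controls and at 8.21, 8.28 and 8.01 in mutants. The genotypes overlapped, with a difference of −0.15 ± 0.11 (SE) and an adjusted p of 0.54. The sources used here do not say what either allele removes from the RNA, so this level does not check the labels. Over genes, which do not count as replicates, Pearson's r was 0.973 to 0.976 among controls, 0.967 to 0.979 among mutants and 0.918 to 0.939 between genotypes. The first principal component of the 6 samples held 62.4% of the variance and separated the genotypes. The second held 12.7% and spread the mutants, with replicate 1 at −34.8, replicate 2 at 9.51 and replicate 3 at 25.0. Markers of muscle and blood cells were present in every sample, with Mhc, the muscle myosin, at 16.46 in controls and 16.58 in mutants and Hml, a blood cell protein, at 10.31 and 10.06.

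Many more genes fell than rose. Against a change of 2-fold, limma's treat test found 150 genes lower in mutants (1.50% of the 9974) and 17 higher (0.170%). Against no change, 498 were lower (4.99%) and 210 higher (2.11%). The falls were also the larger changes, since 77 of the 150 exceeded 4 on the log2 scale and their median was −4.30, while the median of the 17 rises was 2.74 and that of all genes tested was 0.0094. Controls had a mean level over the 150 falling genes of 8.77, 8.82 and 8.33, and mutants of 4.29, 4.09 and 3.93. Control replicate 3 was the lowest control for 82 of the 150. Without it, 146 genes fell by over 2-fold and 12 rose. Without mutant replicate 1 the number of rises was 10, and without mutant replicate 2 it was 8. Of the 150 falls, 62 passed the filter on low values only through the control group, as did 197 of all genes tested, and such genes had to differ. For 27 falls the mutant mean was below 0, where the size of the difference rests on the shrinkage of the rlog values. The genes nearest the threshold were TwdlG and CG34268 on the inside, both with an adjusted p of 0.0496, and CG8420 on the outside, with 0.0506.

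**Figure D1:**
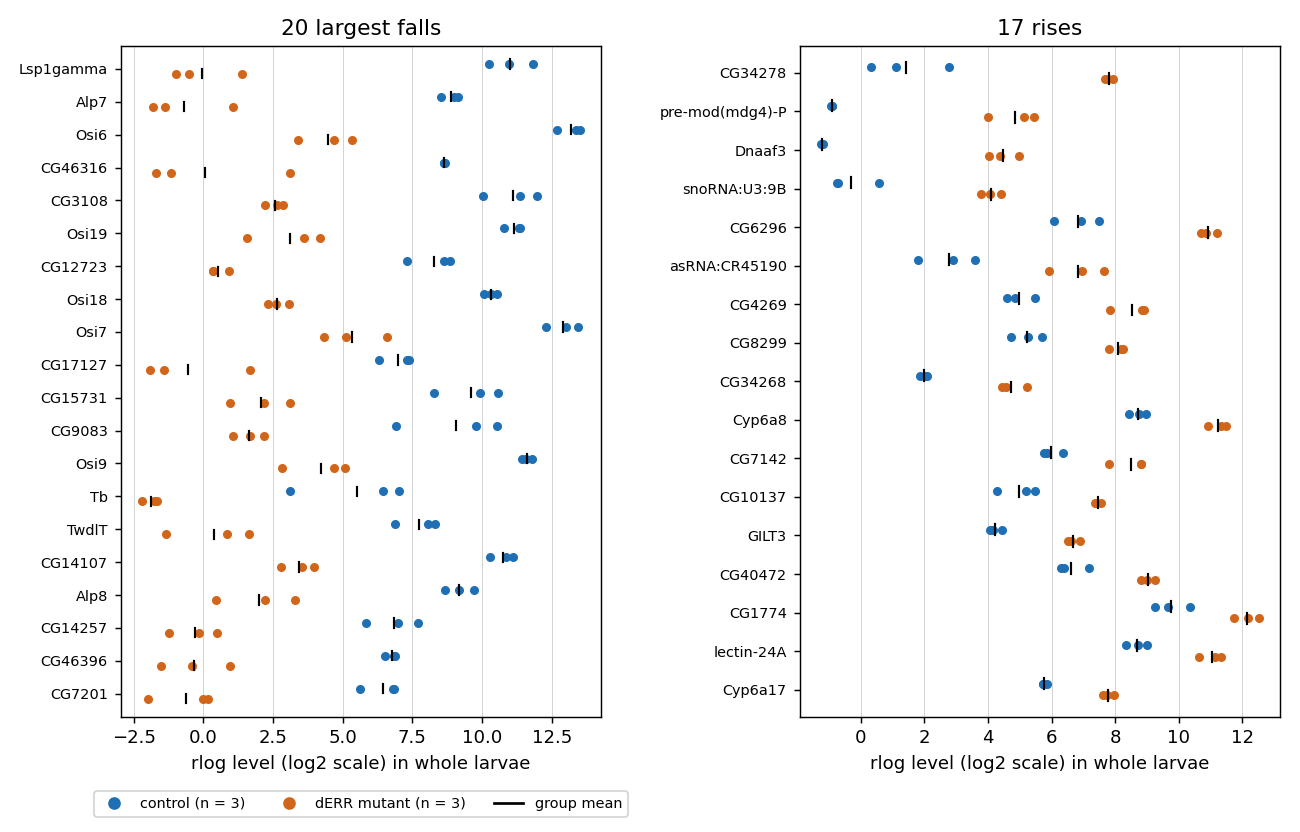
rlog level (log2 scale, horizontal axis) in each of the 6 whole-larva samples for the 20 largest falls (left) and the 17 rises (right) past the over-2-fold test, with controls in blue, dERR mutants in orange and a black bar at each group mean (n = 3). The genotypes do not overlap for any of these genes (across all genes tested, mutants lay wholly below controls for 13.6% and wholly above for 13.7%). Of the falling genes shown, Tb lies below 0 in every mutant sample, and several others have a mutant mean below 0.

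The genes that fell most as a group were the Osiris genes, which encode transmembrane proteins of epithelia that make cuticle and are known to be switched on together before cuticle is deposited. Of 25 Osiris genes with values, 13 were tested, and 12 of these fell against no change, 11 of them by over 2-fold, with none higher and a median change of −6.19. Over all genes tested 4.99% fell against no change and 1.50% by over 2-fold. Of the 13, 6 passed the filter only through the controls and had to be lower in mutants, so the count and the median draw on them. Osi6 (FBgn0027527, 3R:6234708-6237181) was listed at 13.37, 13.50 and 12.69 in controls and at 5.35, 4.70 and 3.38 in mutants. Every mutant lay far below every control, with a change of Osi6 of −8.71 ± 0.46 (adjusted p = 3.04e-05). Osi7 was at 13.01, 13.45 and 12.28 in controls against 6.58, 5.11 and 4.34 in mutants, a change of −7.57 ± 0.54 (adjusted p = 0.00015). Osi18 was at 10.32, 10.53 and 10.07 in controls and 2.31, 3.07 and 2.60 in mutants, or −7.65 ± 0.22 (adjusted p = 2.85e-06). Osi19, Osi9 and Osi14 changed by −8.05, −7.39 and −6.34. Smaller falls were those of Osi15, which kept levels of 9.13, 8.29 and 7.45 in mutants against 12.15, 12.30 and 12.33 in controls (−3.97 ± 0.36), and Osi17 (−3.44 ± 0.23), of which Osi15 did not pass with all 12 samples in the fit (adjusted p = 0.077). Osi15 and Osi17 were picked out with their values in view, as was Osi16, the only tested member that did not pass (−2.49 ± 0.83, adjusted p = 0.14). The count of 12 falls held when each of the 6 samples was left out in turn.

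The structural proteins of the cuticle did not move as one group. The Tweedle proteins, which build the larval cuticle and shape the body, split: of 26 genes 18 were tested, 7 fell, 2 rose and 9 did not pass, with a median of −1.72. Over all genes tested 4.99% fell and 2.11% rose. Of the 18, 7 passed the filter only through the controls and had to be lower in mutants, so the count and the median draw on them. TwdlT (FBgn0029170, 3R:27049220-27051004) was listed at 8.06, 8.31 and 6.86 in controls and at 1.63, 0.86 and −1.33 in mutants (−7.36 ± 0.76, adjusted p = 0.00094). Twdlbeta, at 7.37, 5.37 and 5.44 against −1.33, 0.76 and 0.01, changed by −6.24 ± 0.75 (adjusted p = 0.002). Tubby (Tb), a Tweedle protein that is not in this list and whose dominant mutation makes larvae short and thick, was at 6.43, 7.01 and 3.10 in controls and at −1.68, −2.19 and −1.77 in mutants (−7.39 ± 1.07, adjusted p = 0.0052). Control replicate 3 lay well below the other controls for Tb, though still above all mutants. Tb also passed the filter only through the controls. Changes of TwdlQ and TwdlG were −6.07 and −3.25. In the other direction, TwdlP was at 8.61, 7.67 and 7.71 in controls and at 9.29, 9.19 and 10.13 in mutants (1.54 ± 0.32, adjusted p = 0.027), and Twdlalpha rose by 1.01 ± 0.13 (adjusted p = 0.0027). Both were picked out with their values in view. Without control replicate 1 only 4 Tweedle genes fell, and TwdlQ lost its call without control replicate 1 or 2 (adjusted p = 0.0595 and 0.0645). The TwdlP call was lost without control replicate 2 or 3 or mutant replicate 3 (adjusted p of up to 0.094), and with all 12 samples in the fit TwdlG, TwdlP and Twdlalpha did not pass (0.071, 0.18 and 0.18).

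The chitin-binding Cpr, Lcp and Ccp proteins, the largest family of cuticle proteins, were mostly not changed past the test. Of 98 genes 57 were tested, 9 fell, 5 rose and 43 did not pass, and the median was 0.26. Over all genes tested 4.99% fell and 2.11% rose. Among genes past the test the falls were more numerous and larger. Of all 57, however, 36 had values above 0 and 21 below. At an unadjusted p under 0.05 by limma, 19 were higher and 13 lower. Of the 57, 8 passed the filter only through the controls and had to be lower in mutants. Cpr65Eb was at 6.91, 7.46 and 6.95 in controls and at 2.22, 1.19 and −1.32 in mutants (−6.41 ± 0.81, adjusted p = 0.0027). Cpr30F, at 5.79, 6.69 and 4.77 against 0.94, 0.77 and 0.02, changed by −5.17 ± 0.56 (adjusted p = 0.0012). Cpr23B, Cpr66Cb, Cpr66D and Ccp84Ac changed by −6.21, −5.76, −3.91 and −3.69. Lcp1, a larval cuticle protein picked out with its values in view, went the other way, at 3.75, 4.17 and 4.16 in controls and 6.32, 5.42 and 5.51 in mutants (1.72 ± 0.29, adjusted p = 0.011). The falls numbered 4 without control replicate 1 and 4 without control replicate 2, where Cpr23B and Cpr66Cb no longer passed, and the rises numbered 3 without control replicate 2, 2 without control replicate 3 and 3 without mutant replicate 3. The 4 Vajk genes, which encode secreted cuticle proteins, include 2 that passed the filter only through the controls and so had to differ, Vajk4 and Vajk1. Vajk4 (5.95, 6.49 and 5.48 in controls against −1.49, 0.28 and −1.58 in mutants) and Vajk1 (5.51, 6.17 and 5.21 against −1.47, 1.16 and −1.56) changed by −6.90 ± 0.66 and −6.25 ± 0.81 (adjusted p = 0.00064 and 0.003). Vajk2 and Vajk3 had controls between 13.35 and 13.88 and mutants between 14.02 and 14.41, with Vajk2 passing the test (0.61 ± 0.14, adjusted p = 0.04) and Vajk3 not (adjusted p = 0.083). The Vajk2 call was lost without any 1 of 5 samples, with adjusted p-values of up to 0.12.

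**Figure D2:**
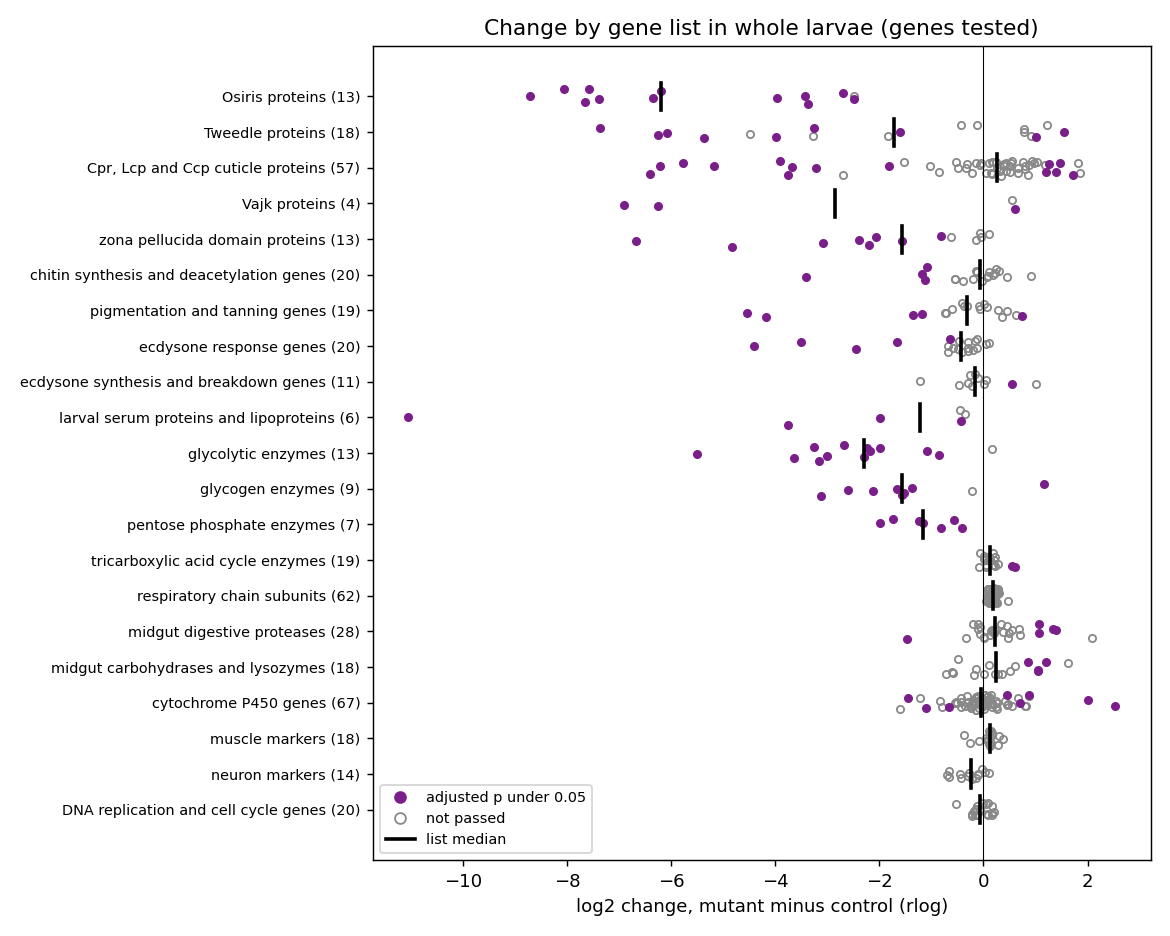
log2 change (mutant minus control, rlog) of every tested gene in 21 of the gene lists, with filled points for an adjusted p under 0.05 against no change, open points for genes that did not pass, a black bar at the list median and the number tested in parentheses. Osiris genes lie at −2.49 or below, Cpr and Tweedle genes lie on both sides of 0, and muscle, neuron and cell cycle genes gather near 0.

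Proteins of the apical surface of epidermal cells fell too. Zona pellucida domain proteins tie the epidermis to the overlying matrix and give denticles their shape in the embryo. Of 13 tested, 8 fell and none rose, with a median of −1.56, where 4.99% of all genes tested fell and 2.11% rose. Dusky-like (dyl, 3L:4294004-4307718) was listed at 10.93, 11.18 and 9.79 in controls and at 4.96, 3.52 and 3.40 in mutants (−6.67 ± 0.49, adjusted p = 0.00017). Dusky (dy), at 6.62, 6.77 and 7.10 against 2.80, 1.76 and 1.43, changed by −4.83 ± 0.38 (adjusted p = 0.00024). Of the 13, dy was the 1 member that passed the filter only through the controls. nyobe (nyo), miniature (m) and neyo (neo) changed by −3.08, −2.40 and −2.21, and nyo and neo did not pass with all 12 samples in the fit (adjusted p = 0.12 and 0.43). Of 5 tested genes for the actin of denticles and bristles, forked (f), a bundling protein, changed by −2.03 ± 0.24 (adjusted p = 0.0018) and 4 did not pass. All 5 had values below 0, and 3 were lower at an unadjusted p under 0.05.

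Chitin and tanning genes changed in part. Of 20 genes for chitin synthesis and deacetylation 4 fell and none rose. These included ChLD3, a chitin-binding protein with a deacetylase domain, at 6.12, 6.68 and 4.74 in controls and 2.73, 2.30 and 2.32 in mutants (−3.40 ± 0.49, adjusted p = 0.005). The chitin synthase kkv fell by 1.08 ± 0.19 on the log2 scale (adjusted p = 0.014), a call lost without control replicate 1, control replicate 2 or mutant replicate 2 (adjusted p of up to 0.061), and knk, which protects new chitin, fell by 1.13 ± 0.11 (adjusted p = 0.00089). With all 12 samples in the fit kkv and knk did not pass (adjusted p = 0.15 and 0.58). Of 19 pigmentation and tanning genes 4 fell and 1 rose. The laccase-like multicopper oxidase Mco3 was at 7.58, 7.96 and 7.68 in controls and at 1.28, 4.57 and 3.75 in mutants (−4.54 ± 0.73, adjusted p = 0.0085). amd, a relative of dopa decarboxylase needed for a soft cuticle, was at 9.48, 9.36 and 8.89 against 4.97, 5.30 and 4.91 (−4.18 ± 0.18, adjusted p = 1.57e-05). The straw laccase (stw), which tans the cuticle, was among the other falls, and Pu, the first enzyme of pterin and tetrahydrobiopterin synthesis, was the 1 rise (0.74 ± 0.09, adjusted p = 0.0018). kkv, knk and Pu were picked out with their values in view. Over all cuticle lists together 163 genes were tested, of which 49 fell and 9 rose against no change and 31 fell and none rose by over 2-fold. Of all genes tested 4.99% fell and 2.11% rose against no change, and 1.50% and 0.170% by over 2-fold. The sum includes members that passed the filter only through the controls and had to be lower: 6 Osiris, 7 Tweedle, 8 Cpr, 2 Vajk and 1 zona pellucida genes. ChLD3 and Mco3 also passed only through the controls. Markers of the airway, whose cells also secrete cuticle, moved in the same samples: of 7 tracheal markers tested 2 fell, Gasp and uif, with a mean level of the list between 10.14 and 10.41 in controls and between 9.81 and 10.01 in mutants, and their part in the cuticle results was not tested. In whole larvae fewer cells of a type and less RNA per cell cannot be told apart.

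Genes of the response to ecdysone, the molting hormone, were lower in part. Of 20 ecdysone response genes tested 5 fell and none rose, with a median of −0.44, and 18 of the 20 had values below 0. Over all genes tested 4.99% fell and 2.11% rose, and 4826 of 9974 had values below 0. The 3 largest falls were effectors named for their induction by ecdysone in imaginal discs. ImpL1 (FBgn0001256, 3L:13382765-13383999) was at 11.27, 11.39 and 11.34 in controls and at 8.07, 6.30 and 6.42 in mutants, with mutant replicate 1 above the other 2 (−4.41 ± 0.42, adjusted p = 0.00064). ImpE1, at 9.91, 10.18 and 9.61 against 6.38, 6.94 and 5.90, changed by −3.49 ± 0.26 (adjusted p = 0.00018). ImpE2, a secreted protein, was at 9.22, 8.93 and 7.95 against 6.28, 6.25 and 6.20 (−2.46 ± 0.29, adjusted p = 0.0019). Hr4, a nuclear receptor of the response, fell by 1.65 ± 0.18 on the log2 scale (adjusted p = 0.0012), from 8.12, 8.72 and 8.43 to 6.73, 7.01 and 6.56. With all 12 samples in the fit, where the spread is shared with the fat bodies, ImpL1 and Hr4 kept their calls and ImpE1 and ImpE2 did not pass (adjusted p = 0.24 and 0.17).

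The upper tier of the cascade differed less. Eip75B, an early nuclear receptor, was at 8.88, 9.19 and 9.15 in controls and at 8.23, 8.44 and 8.63 in mutants (−0.64 ± 0.13, adjusted p = 0.027). This call was lost without control replicate 2 or 3 or mutant replicate 1 or 2 (adjusted p of up to 0.10), without the filter on low values, without the variance trend and with all 12 samples in the fit (adjusted p = 0.28). The receptor subunits EcR and usp gave −0.47 ± 0.20 and −0.30 ± 0.09 (adjusted p = 0.24 and 0.092), the early genes br and Eip74EF −0.69 ± 0.26 and −0.68 ± 0.36 (0.20 and 0.36), and the early-late receptor Hr3 −0.59 ± 0.31 (0.36). Eip78C, MsrA, Kr-h1, Blimp-1, Hr39 and ftz-f1 ranged from −0.49 to −0.17, and ImpE3, Eip63F-1, Cth and E23 from −0.13 to 0.11, and none of these passed. Among 11 genes that make or break down ecdysone only shd passed, the enzyme that converts ecdysone to its active form, at 7.92, 7.63 and 7.50 in controls and 8.27, 8.18 and 8.23 in mutants (0.54 ± 0.12, adjusted p = 0.038). That call was lost without each of 5 samples (adjusted p of up to 0.12). The prothoracic gland enzymes spok, sro, phm, dib, sad and nvd gave changes between −0.26 and 0.05 with adjusted p-values of at least 0.57. The cholesterol carrier Npc1a and the regulator mld gave −0.29 and −0.47 (adjusted p = 0.14 and 0.13). Cyp18a1 and Eo, which inactivate ecdysone, gave −1.21 ± 0.41 and 1.01 ± 0.31 (adjusted p = 0.15 and 0.11).

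**Figure D3:**
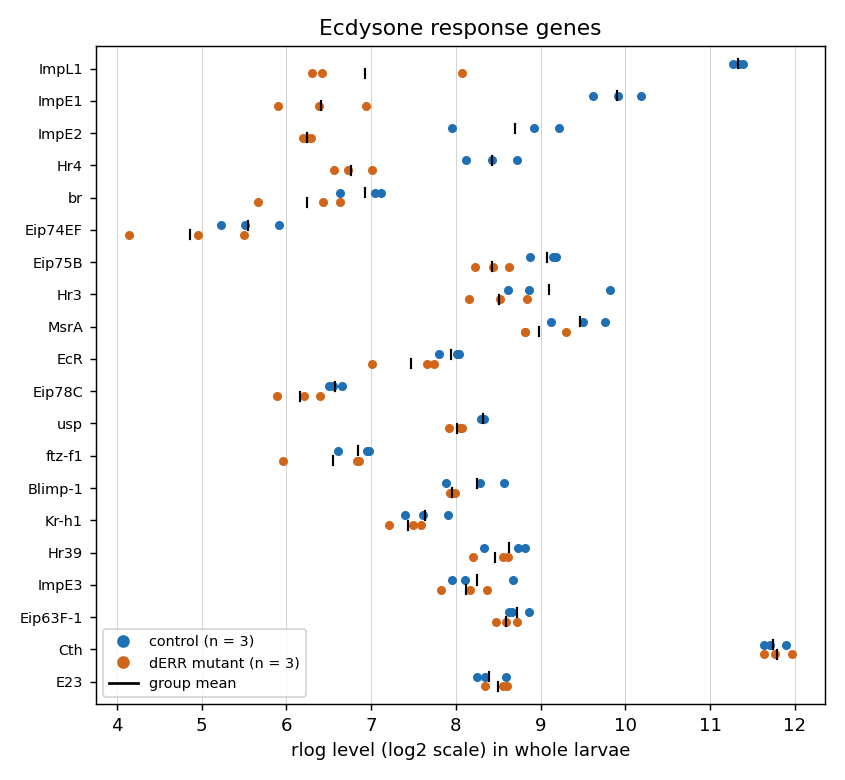
rlog level (log2 scale) of the 20 tested ecdysone response genes in each whole-larva sample, ordered by change, with controls in blue, dERR mutants in orange and black bars at the group means (n = 3). ImpL1, ImpE1, ImpE2 and Hr4 show separate groups, while lower rows such as Hr3, ImpE3 and E23 overlap.

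Of all genes, the largest difference belonged to a storage protein, Lsp1gamma. It passed the filter on low values only through the controls and had to be lower in mutants. Larval serum proteins are made by the fat body late in larval life and stored for metamorphosis. Lsp1gamma (FBgn0002564, 3L:66430-68995) was at 10.98, 10.24 and 11.82 in controls and at 1.40, −1.0 and −0.51 in mutants (−11.05 ± 0.64, adjusted p = 4.73e-05). In the fat bodies the change was −10.45 (adjusted p = 0.001), from a mean of 10.21 with an SD of 4.38 in controls. Lsp1alpha and Lsp1beta, picked out with their values in view, changed by −3.75 ± 0.74 and −1.99 ± 0.40 (adjusted p = 0.022 and 0.023). Lsp1alpha varied among controls, at 7.63, 7.94 and 10.31, and lost its call without mutant replicate 2 or 3, while Lsp1beta lost it without any 1 control (adjusted p of up to 0.084). With all 12 samples in the fit neither passed (adjusted p = 0.42 and 0.61). Of the 6 genes of this list tested 4 fell and none rose, against 4.99% and 2.11% of all genes tested. Lsp2, Fbp1 and Fbp2 did not reach the filter.

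Among the alkaline phosphatases, enzymes of the cell surface, 2 of 11 tested fell and 9 did not pass. The neighbours Alp7 (2R:22203694-22205593) and Alp8 (2R:22208464-22210765) were at 8.98, 8.52 and 9.14 and at 9.71, 8.66 and 9.18 in controls. In mutants Alp7 was at 1.06, −1.81 and −1.38 (−9.59 ± 0.70, adjusted p = 0.00017) and Alp8 at 0.46, 2.23 and 3.28 (−7.19 ± 0.65, adjusted p = 0.00048). As related copies they can share reads, so the split between them is uncertain. Both passed the filter only through the controls and had to be lower in mutants. Of 11 mucins tested, glycoproteins of extracellular matrices, only Muc91C (−6.80 ± 0.86) and Mur89F (−3.08 ± 0.29) fell, with adjusted p-values of 0.0027 and 0.00062. Muc91C passed the filter only through the controls and had to be lower, and Mur89F did not pass with all 12 samples in the fit (adjusted p = 0.17). Nep6, a neprilysin-like metallopeptidase, changed by −2.13 ± 0.21 (adjusted p = 0.00073), and 5 of 22 neprilysins fell in all, against 4.99% of all genes tested. The large falls without a family included CG3108, a predicted carboxypeptidase, at 11.35, 11.98 and 10.02 in controls and 2.84, 2.21 and 2.63 in mutants (−8.56 ± 0.45, adjusted p = 3.04e-05). CG46316, CG12723, CG17127, CG15731, CG9083, CG14107, CG14257, CG46396 and CG7201, for which no function is given here, changed by between −8.58 and −7.05. Except for CG14107, these genes and CG3108 passed the filter only through the controls and had to be lower. CG9083 stood low in control replicate 3 (9.78, 10.52 and 6.91) and CG46316 high in mutant replicate 3 (−1.17, −1.70 and 3.09).

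Sugar metabolism fell beyond glycolysis. Of the 13 glycolytic enzymes 12 fell and 10 of them by over 2-fold, with Ldh, lactate dehydrogenase, at −5.50 and Pfk, the committed step, at −3.64. Of 9 genes that build or break down glycogen 7 fell and 1 rose, with a median of −1.56. Over all genes tested 4.99% fell and 2.11% rose. The debranching enzyme CG9485 was at 9.93, 9.83 and 9.87 in controls and at 6.94, 6.71 and 6.60 in mutants (−3.13 ± 0.11, adjusted p = 5.84e-06). Pgm1, which links glycogen to glycolysis, changed by −2.60 ± 0.13, and Gbs-76A, a targeting subunit that brings protein phosphatase to glycogen, by −2.11 ± 0.13, though Gbs-76A did not pass with all 12 samples in the fit (adjusted p = 0.21). Synthesis and breakdown moved the same way, since glycogen synthase (GlyS) changed by −1.67 ± 0.09, the branching enzyme AGBE by −1.56 ± 0.13 and glycogen phosphorylase (GlyP) by −1.52 ± 0.11 (adjusted p = 4.21e-05, 0.00039 and 0.00013). Gbs-70E, another targeting subunit, was the rise (8.58, 8.0 and 8.64 in controls against 9.61, 9.98 and 9.14 in mutants, 1.17 ± 0.24, adjusted p = 0.026), and its call was lost without control replicate 1 or 2 or mutant replicate 1 or 2. AGBE and Gbs-70E were picked out with their values in view.

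All 7 tested enzymes of the pentose phosphate pathway, which makes NADPH and ribose from glucose 6-phosphate, fell, with a median of −1.15. For this and the lists below, the shares over all genes tested were 4.99% lower and 2.11% higher. Zw, the first and rate-limiting enzyme, was at 9.46, 9.06 and 9.36 in controls and at 7.46, 7.29 and 7.17 in mutants (−1.98 ± 0.13, adjusted p = 0.00011). Taldo, at 12.63, 12.59 and 12.71 against 11.06, 10.81 and 10.83, changed by −1.74 ± 0.09 (adjusted p = 3.04e-05). Leaving out single samples left 5 or 6 of these falls. The trehalose transporters moved the other way, Tret1-1 by 0.77 ± 0.10 (adjusted p = 0.0036) and Tret1-2 by 1.31 ± 0.31 (adjusted p = 0.044). The Tret1-2 call was lost without any 1 sample (adjusted p of up to 0.16). The pyruvate dehydrogenase subunits Pdha (12.49, 12.35 and 12.39 against 13.09, 12.92 and 12.89) and Pdhb rose by 0.56 ± 0.09 and 0.61 ± 0.09 (adjusted p = 0.0069 and 0.006) but not with all 12 samples in the fit (0.085 and 0.095), and the other 17 of 19 genes of the tricarboxylic acid cycle list did not pass. None of the 62 respiratory chain subunits passed limma's test, although 62 of 62 had values above 0, with a median of 0.18, and 13 had an unadjusted p under 0.05. Of 17 genes for fatty acid synthesis and storage 4 rose, among them AcCoAS (12.27, 11.88 and 12.07 against 13.26, 13.23 and 12.95, 1.07 ± 0.13, adjusted p = 0.0019) and the fatty acid synthase FASN1 (0.75 ± 0.13, adjusted p = 0.012, or 0.065 without control replicate 3), and 1 fell. The metabolic genes with smaller changes named here, from Tret1-1 to FASN1, were picked out with their values in view.

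The 17 rises held no member of the cuticle lists, which cover 163 of the 9974 genes tested. With so small a share listed, the absence of cuticle genes among 17 does not set the rises apart from other genes. CG34278, for which no function is given here, was at 2.77, 0.34 and 1.12 in controls and at 7.92, 7.79 and 7.67 in mutants (6.39 ± 0.56, adjusted p = 0.00042). Several rises began from almost nothing. Dnaaf3, a factor for assembling the dynein arms of cilia, was at −1.21, −1.24 and −1.20 in controls and 4.98, 4.37 and 4.04 in mutants (5.68 ± 0.68, adjusted p = 0.0019). The pre-mod(mdg4)-P transcript, an alternative 3′ exon precursor of the mod(mdg4) locus, was between −0.94 and −0.91 in controls and at 4.01, 5.44 and 5.12 in mutants (adjusted p = 0.0014). With all 12 samples in the fit CG34278 and pre-mod(mdg4)-P did not pass (adjusted p = 0.066 and 0.14). The U3 small nucleolar RNA snoRNA:U3:9B and the antisense RNA asRNA:CR45190 rose by 4.39 ± 0.67 and 4.06 ± 0.56. The libraries were made from poly-A RNA, which is a poor measure of small nucleolar RNAs. Of the 17 rises, 6 passed the filter only through the mutants.

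CG6296, a lipase of the gut, was at 7.50, 6.09 and 6.93 in controls and at 11.19, 10.85 and 10.71 in mutants (4.08 ± 0.32, adjusted p = 0.00024), while the other 7 midgut lipases tested gave values between −0.24 and 0.18 and did not pass. The predicted serine proteases CG8299 and CG7142 rose by 2.85 ± 0.25 and 2.5 ± 0.30 (adjusted p = 0.00043 and 0.0019). The cytochrome P450 enzymes Cyp6a8 (8.74, 8.98 and 8.42 against 11.49, 11.32 and 10.92) and Cyp6a17 (5.72, 5.74 and 5.84 against 7.96, 7.63 and 7.73) rose by 2.53 ± 0.18 and 2.01 ± 0.13 (adjusted p = 0.00015 and 8.87e-05). Among 67 P450 genes tested 5 rose and 3 fell, with a median of −0.06, where 2.11% of all genes tested rose and 4.99% fell. lectin-24A, a sugar-binding lectin, was at 8.72, 8.99 and 8.33 against 11.32, 10.64 and 11.15 (2.36 ± 0.21, adjusted p = 0.0005). GILT3, of a family of lysosomal thiol reductases, rose by 2.45 ± 0.19, and CG1774, a predicted acyl-CoA thioesterase, by 2.39 ± 0.29. CG4269, CG34268, CG10137 and CG40472 rose by 3.55, 2.74, 2.47 and 2.40.

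Midgut enzymes gave more rises than falls. Of 54 genes in the lists of midgut proteases, carbohydrases and lipases 9 rose and 1 fell, against 2.11% and 4.99% of all genes, with a median of 0.18. Besides CG6296, the rises were the trypsins alphaTry, betaTry and epsilonTry, the protease Jon99Fi, the maltases Mal-A1, Mal-A6 and Mal-A8, and the lysozyme LysC, and the fall was Jon74E (−1.46 ± 0.17, adjusted p = 0.0018). betaTry, at 11.98, 11.81 and 11.70 in controls and 13.49, 13.16 and 12.83 in mutants, and epsilonTry changed by 1.33 ± 0.16 and 1.39 ± 0.16 (adjusted p = 0.0022 and 0.0019). The other rises lay between 0.86 and 1.21. Mutant replicate 1 had the highest mean level of the protease list, at 11.89 against 11.42 and 11.35 in the other mutants and 11.03 to 11.31 in controls. The count of rises depended on single libraries, with 4 without control replicate 2, 4 without control replicate 3 and 5 without mutant replicate 2. The calls of alphaTry, Jon99Fi, Mal-A1, Mal-A6, Mal-A8 and LysC were each lost without at least 1 sample, while those of betaTry, epsilonTry and CG6296 were not, although betaTry did not pass with all 12 samples in the fit (adjusted p = 0.13). These midgut genes other than CG6296 were picked out with their values in view. Glutathione S-transferases gave 4 rises and 1 fall among 33, UDP-glycosyltransferases 4 and 4 among 30, and antimicrobial peptides and recognition proteins 0 and 2 among 20.

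Genes of growth and of most other tissues did not pass. None of 18 muscle markers, 14 neuron markers, 20 DNA replication and cell cycle genes, 9 insulin and growth signalling genes or 13 heat shock proteins passed limma's test against no change. At an unadjusted p under 0.05, 2 muscle markers, 1 cell cycle gene and 2 insulin pathway genes were higher, 1 cell cycle gene and 1 heat shock gene were lower, and no neuron marker passed. The mean level of the neuron list was 7.35 to 7.80 in controls, 6.64 in mutant replicate 1 and 7.46 and 7.59 in the other mutants. The 90 cytosolic and 73 mitochondrial ribosomal proteins gave no call either, with 30 and 7 higher and none lower at an unadjusted p under 0.05 and medians of 0.21 and 0.11. Of 10 hemocyte markers 1 fell, and of 10 Malpighian tubule markers 1 rose. The mean level of the salivary gland list was lowest in mutant replicate 3, at 4.85 against 6.05 and 6.77 in the other mutants and 6.22 to 6.88 in controls. The lncRNA:roX1, an RNA made in males, was at 10.05, 9.24 and 10.06 in controls and 10.28, 10.64 and 9.77 in mutants, and the genotypes overlapped.

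Most of the falling genes had a low mean level in the fat body. In control fat bodies the mean of 118 of the 150 (78.7%) lay under the log2 of 10, against 27.8% of all genes tested. The 150 had a median of 0.79 there, against 8.60 in control whole larvae. For all genes these medians were 7.11 and 8.0. Control fat bodies differed widely for some falls, with an SD of 3.65 around 1.89 for Osi6 and of 3.08 around 2.10 for Osi7. For others, such as Tb, the SD was 0.014. A mean under the log2 of 10 therefore does not exclude a signal in a single control fat body. Of the 32 falls with a fat body signal, 1 is in a cuticle list, Osi15, and 10 are glycolytic enzymes, and others include ect and mtg, genes of the airway matrix. In all, 27 of the 32 also fell in fat bodies against no change while 5 did not pass. In fat bodies 28 of the 150 fell and 1 rose, where 22.2% of all genes passed in either direction. Of the 17 rises, 11 were also higher in fat bodies and 8 had a mean under the log2 of 10 in control fat bodies. The mutant effect differed between whole larvae and fat bodies for 83 of the 150 falls and 9 of the 17 rises in limma's interaction test, which was passed by 10.2% of all genes. A gene without signal in fat bodies has little room to fall there. GlyP fell in whole larvae, while its mean in fat bodies was 13.73 for controls and 13.95 for mutants (interaction adjusted p = 0.00066). CG7142 rose by 2.5 in whole larvae and by 7.70 in fat bodies (interaction adjusted p = 1e-04), and Cyp6a8 by 2.53 in whole larvae with −1.05 in fat bodies (interaction adjusted p = 0.0084, fat body adjusted p = 0.16).

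**Figure D4:**
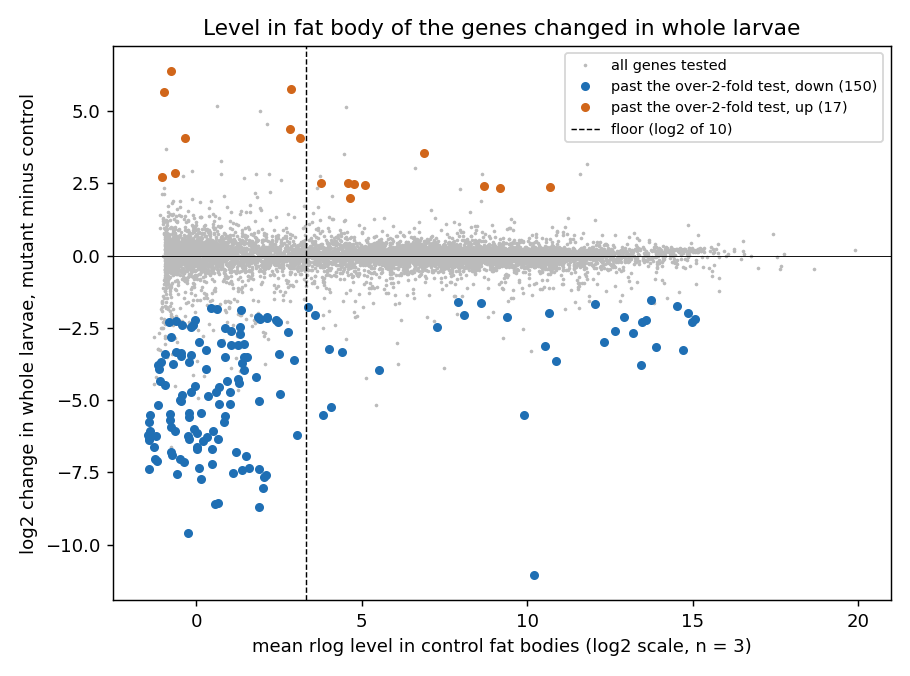
log2 change in whole larvae (vertical axis) against the mean rlog level in control fat bodies (horizontal axis, n = 3) for the 9974 genes tested, with the 150 falls in blue and the 17 rises in orange, and a dashed line at the log2 of 10. The falls gather to the left of the line, where 118 of 150 lie, and the smaller group to the right includes the glycolytic enzymes and Lsp1gamma, the lowest point.

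**Figure D5:**
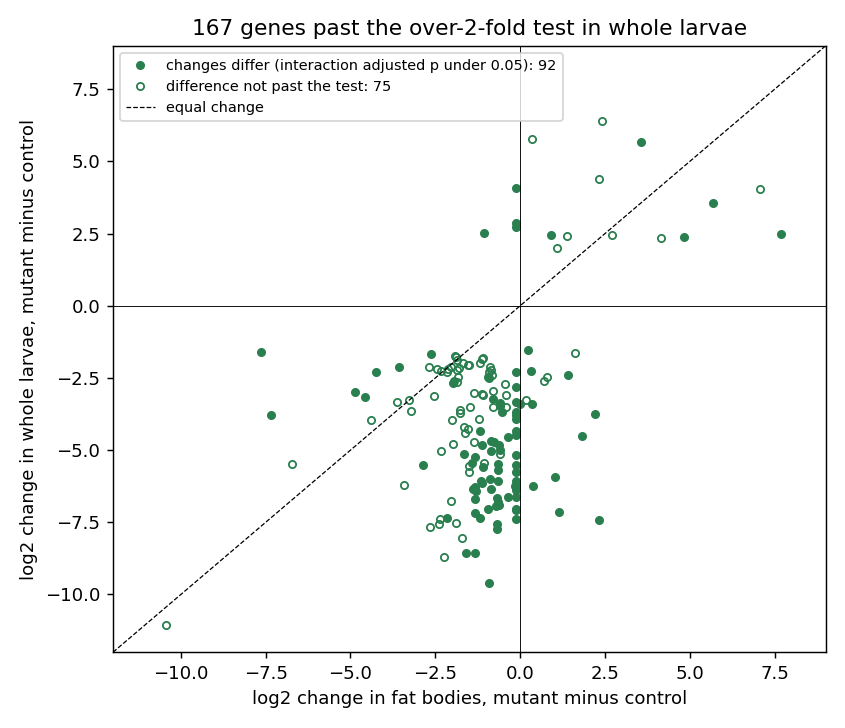
log2 change in whole larvae (vertical axis) against log2 change in fat bodies (horizontal axis) for the 167 genes past the over-2-fold test in whole larvae, with filled points for the 92 whose changes differ by the interaction test and a dashed line of equal change. A column of falling genes near 0 in fat bodies stands apart from genes near the line, such as Lsp1gamma at −11.05 and −10.45.

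The falling genes also lay near each other more often than genes in general. Of the 150, 47 (31.3%) lay within 50 kb of another fall, measured as the gap between the genes, against 14.8% of 9964 genes with a position. The largest group lay at 3R:6150116-6341424, where 15 of 19 tested genes fell by over 2-fold. It holds the Osiris genes Osi24, Osi2, Osi6, Osi7, Osi9, Osi14, Osi15, Osi17, Osi18, Osi19 and Osi20 together with CG31559, CG46396, CG46026 and CG31560. At 3L:13377957-13383999 all 4 tested genes fell, ImpL1, SNCF, CG14107 and CG14111. Neighbouring genes can share regulatory sequence, so these members are not independent of each other. The right arm of chromosome 3 held 35.3% of the falls and 41.2% of the rises, against 24.9% of the genes tested. These are 53 falls, of which 15 belong to the Osiris group above, and 7 rises. ERR lies on the left arm, and within 500 kb of it 4 of 109 tested genes fell by over 2-fold (3.67%, against 1.50% of all) and none rose. These were CG7201 at 104 kb, Cpr66Cb at 150 kb, ImpE1 at 186 kb and Cpr66D at 454 kb from ERR. Of the genes that fell, 75 of 150 (50%) carry only a CG number as a name, against 36.2% of all genes tested.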

How the data were processed

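The authors quantified stranded poly-A libraries with Salmon 1.10.2 on an index of BDGP6.46 with Ensembl v110, summed transcripts to genes and deposited regularized log2 (rlog) values made with DESeq2 1.42.0 from the 12 samples together, under a design of genotype, tissue and their interaction. Library depth is not recoverable from rlog values, and errors rest on the replicates. Salmon divides reads shared by near-identical copies by an estimate, which concerns the Alp, Osiris, Tweedle and cuticle protein families.

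Here the 6 whole-larva samples were fitted alone in R 4.3.3 with limma 3.58.1, with a variance trend and Benjamini-Hochberg adjustment over 9974 genes, those whose mean reached the log2 of 10 in either genotype. A call of over 2-fold used limma's treat test against a log2 change of 1, and other adjusted p-values come from limma's test against no change, with a threshold of 0.05. An exact permutation test of 3 against 3 cannot give a two-sided p below 0.1. The interaction of genotype and tissue used all 12 samples. On simulated data of 9974 genes, the over-2-fold test found 89 of 100 genes changed by 2.5 and 95 of 100 changed by 4 on the log2 scale, with 2 false calls among 9774. The simulated noise was normal and independent between samples, and the filter was not applied again. These numbers therefore do not measure false calls from the filter, from rlog shrinkage or from differences that samples of a genotype share.

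The 47 gene lists and the members described were chosen with earlier results of these data known. A few listed symbols were respelled to those of the table. Genes named are ERR, all rises and the 20 largest falls past the over-2-fold test without overlap, up to 6 such members of each list, and every tested ecdysone gene, and others are marked as picked out with their values in view. Gene positions were read from Ensembl 115 (BDGP6.54), and 10 tested genes had none. Promoter and protein sequences were not analysed here. The alternatives tried were other filters, scalings, variance models, thresholds and sample sets, a replicate block and leaving out each sample. Figures were drawn with matplotlib 3.10.9.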

Additional observations from a re-analysis of the deposited data

Results flagged for a closer look

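For 60 of the genes named, the mutant change differed between whole larvae and fat bodies by limma's interaction test (adjusted p under 0.05 over the 9974 genes, 10.2% of which passed). The values below are the change in whole larvae minus that in fat bodies, on the log2 scale, so a negative value means a lower change in whole larvae. Groups of 3 are too small for a test of single outlying samples.

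Most of the genes with negative values fell in whole larvae and had means under the log2 of 10 in fat bodies of both genotypes. Among cuticle genes these were Tb (−7.273), Vajk1 (−6.645), Vajk4 (−6.278), TwdlT (−6.185), Cpr23B (−6.094), Twdlbeta (−6.081), TwdlQ (−5.959), Cpr66Cb (−5.656), Cpr65Eb (−5.097), Cpr30F (−5.058), Osi14 (−4.954), Mco3 (−4.185), Cpr66D (−3.79), ChLD3 (−3.742), Ccp84Ac (−3.569) and Osi17 (−2.851). Among proteins of the apical cell surface and denticles they were dyl (−5.991), dy (−4.219), m (−3.807) and f (−2.44). Among other genes they were Alp7 (−8.683), CG14257 (−8.278), CG3108 (−7.235), CG12723 (−7.066), CG46316 (−6.977), CG46396 (−6.968), CG7201 (−6.931), CG17127 (−6.849), Muc91C (−6.151), Alp8 (−5.853), CG14107 (−5.176), spz4 (−4.339), CG9522 (−2.594) and CG9514 (−2.181). CG9083 (−9.755) had a mean of 3.72 in mutant fat bodies against 1.39 in control ones and did not pass there (adjusted p = 0.14 by limma), and asRNA:CR45600 (−3.898) had a mean of 4.07 in control fat bodies and fell there too.

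Among metabolic genes, Ldh gave −2.653, and its fat body mean was 3.83 for controls and 0.98 for mutants. GlyP gave −1.75, AGBE −1.11, Pdhb −1.011, Pdha −0.9173, Pu −0.8615 and Pglym78 −0.6969, while GlyS (0.9514), Pgi (1.407) and Tpi (1.871) fell further in fat bodies than in whole larvae.

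Genes that rose in whole larvae differed both ways. CG7142 (−5.197), CG1774 (−2.438) and CG4269 (−2.123) rose further in fat bodies, where CG1774 went from a mean of 10.70 to 15.53 and CG4269 from 6.87 to 12.54. CG6296 (4.21), Cyp6a8 (3.585), CG8299 (2.976), CG34268 (2.851), Dnaaf3 (2.112), epsilonTry (1.87), Lcp1 (1.839), CG10137 (1.55), Mal-A6 (1.195) and Mal-A8 (1.18) had the higher change in whole larvae. In fat bodies Dnaaf3 and CG10137 rose too. There CG6296, Cyp6a8, CG8299 and CG34268 gave −0.13, −1.055, −0.12 and −0.11 and did not pass. Jon74E gave −3.74, with a fall of 1.46 in whole larvae and a rise of 2.28 in fat bodies (fat body adjusted p = 0.00045).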

How the results depend on the processing

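Another sample set, variance model, filter or threshold moved several counts, and the cause was not tested. With all 12 samples in the fit 261 genes fell and 71 rose against no change and 11 rose by over 2-fold, with 5 zona pellucida genes and 2 ecdysone response genes lower and 4 midgut and 3 Cpr genes higher. That fit shares the spread of a gene between tissues. For apn, which lost its call there, the SD was 3.29 in control fat bodies, against 0.051 in control and 0.28 in mutant whole larvae. An adjusted p under 0.005 left 94 falls and 8 rises, and the no-change test with a log2 change over 1 gave 332 and 74. A filter at the log2 of 50 left 4 Cpr falls. Midgut rises numbered 4 with no filter and 4 without the variance trend, and Cpr rises 2 and 3, with 3 under robust variance. Leaving out each sample gave 105 to 168 falls and 8 to 16 rises by over 2-fold, 346 to 514 falls and 125 to 170 rises against no change, 4 to 8 Tweedle falls, 4 to 9 Cpr falls, 2 to 7 Cpr rises and 4 to 12 midgut rises. It gave 678 to 1330 genes with an interaction, the fewest without whole-larva control replicate 1 and the most without fat body control replicate 7. Genes that changed sign had not passed in the first place. With single samples left out, sad ranged from −0.31 to 0.072, ImpE3 from −0.27 to 0.086, sro from −0.27 to 0.030, phm from −0.26 to 0.34, Cth from −0.045 to 0.12 and nvd from −0.16 to 0.45, while sro gave 0.027 under quantile normalization and Cth −0.027 with array weights. Of 162 genes named, 41 lost their call with all 12 samples and 16 without the filter.

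The replicate numbers did not pair samples, since deviations of same-numbered samples correlated at −0.0094, −0.06 and −0.13. A fit with replicate block gave 147 falls and 15 rises by over 2-fold, of which 128 and 13 are among the 150 and 17, and 430 falls and 177 rises against no change. Depth is unknown, and rlog shrinkage limits the size given to genes near 0.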

Other observations

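Further genes of cuticle-forming epithelia were noticed after their values were seen, so they are given as values with no count. Among serine proteases of the apical surface and matrix, flz, known as filzig, was at 10.35, 10.70 and 9.88 in controls and at 5.62, 4.90 and 5.35 in mutants (−5.02 ± 0.25). tpr, Np and mas changed by −2.31, −2.0 and −2.0, and Sb, the Stubble protease, by −1.46. Among genes for the matrix that lines the airway, apn was at 9.01, 9.10 and 9.10 in controls and 5.40, 5.12 and 4.84 in mutants (−3.95 ± 0.15), and ect, ich, mtg and Gasp changed by −3.33, −1.88, −1.78 and −1.19.

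Ligands of the Toll receptor family also differed, among them spz4, which passed the filter only through the controls. spz4 was at 6.59, 7.36 and 6.87 in controls and at 2.27, 2.61 and 2.57 in mutants (−4.46 ± 0.26), while NT1, spz6 and spz5 changed by −2.06, −1.58 and −0.92. spz itself gave −0.37 (adjusted p = 0.08 by limma) and spz3 0.46 (adjusted p = 0.092), and neither passed. In the GMC oxidoreductase family CG45065, CG9514, CG9522 and CG9512 changed by −2.31, −2.29, −2.27 and −1.62, Gld, glucose dehydrogenase, by −0.90, and the other 4 tested did not pass, with CG9518 at −1.82, CG9503 at −0.86, CG9521 at 0.41 and Eo at 1.01 (adjusted p = 0.055, 0.083, 0.16 and 0.11). The calls of Sb and spz6 were lost without single samples (adjusted p of up to 0.079 and 0.069). With all 12 samples in the fit flz, spz4, CG9514 and CG9522 kept their calls, and the other genes named here that had passed no longer did (adjusted p between 0.071 and 0.79), while CG9518 passed (0.025).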
